A study of Hordeum vulgare with 6 samples.

Results

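The LSH-like genes are the barley genes whose proteins carry the DUF640 domain, named after LIGHT-DEPENDENT SHORT HYPOCOTYLS of *Arabidopsis* and also called the ALOG family. The deposited annotation gives the domain PF04852 to 10 of its 40411 genes, and these 10 genes of the Morex V3 annotation, all of high confidence, are described here. The family was chosen by its measured differences between the genotypes, because several of its members were already known to be higher in *msnsd*. The difference between genotypes is therefore given as a description, and nothing is supported with it.

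ALOG proteins are plant-specific nuclear proteins whose single conserved domain binds DNA, and they act in meristems and at the boundaries between meristems and lateral organs. In *Arabidopsis*, LSH1 was identified in light-dependent growth of the seedling stem, and LSH3 and LSH4 are expressed at organ boundaries. In rice, TAWAWA1 keeps the inflorescence meristem from turning into a spikelet too early and so sets panicle branching, and LONG STERILE LEMMA (G1) sets the identity of the sterile lemma. The files pair none of the 10 barley genes with these named genes, so they are ordered below by their level.

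The 6 RNA-seq libraries come from young panicles 0.5 to 1 cm long, collected between the glume and lemma primordium stages. There were 3 libraries of E934, a feed barley variety that served as wild type, and 3 of *msnsd*, a single mutant line with many stem nodes and spikes and a dwarf stature, which was selected after E934 had been treated with ethyl methane sulfonate (EMS) and radioactive cobalt. A mutagenized line can carry other mutations beside the causal one, and plant age and growth conditions of the sampled panicles are not given in the sources used here. Levels are in TPM, a measure that divides the reads of a transcript by its length and scales every library to the same total. Levels of different genes can thus be set side by side as far as their gene models are complete. Sequencing depth is unknown. Values are means ± SD (n = 3). Whether the replicates are single plants or pools is not given, and a panicle is a mixture of tissues in which more cells expressing a gene and more RNA per cell cannot be told apart.

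The libraries were alike in kind. Between 33227 and 35537 genes were above 0 TPM, and Pearson correlations of log2 TPM across genes, which are not independent replicates, ran from 0.951 to 0.968 within a genotype and from 0.947 to 0.958 between genotypes. The 9 KNOX homeobox genes, which maintain meristems, summed to 304.56 to 333.08 TPM across E934 and 324.98 to 374.73 TPM across *msnsd*, and none was at 0 in all libraries. The 31 MADS-box genes with a K-box, which specify floral organs and meristems, summed to 1534.40 to 1579.99 TPM across E934 and to 1172.96 to 1354.08 TPM across *msnsd*, without overlap and with no gene at 0 in all libraries. Among leaf genes, the 43 chlorophyll a-b binding proteins overlapped between genotypes (373.75 to 415.23 against 319.02 to 564.34 TPM). The 2 Rubisco small subunit genes stood at 53.16 TPM in replicate 1 of E934 and between 114.52 and 149.86 TPM in the other 5 libraries. The MADS-box sum thus differed between the genotypes, and its part in the differences of the LSH-like genes was not tested.

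All 10 genes were detected in all 6 libraries, and a pair of them held most of the family's transcripts. HORVU.MOREX.r3.7HG0736060 (chromosome 7H, 594626527 to 594627662) had 77.42, 80.15 and 66.60 TPM in replicates 1, 2 and 3 of E934 and 84.59, 69.38 and 78.68 TPM in those of *msnsd*. HORVU.MOREX.r3.6HG0566830 (6H, 103679049 to 103681227) had 51.20, 44.44 and 48.73 TPM across E934 against 46.59, 50.03 and 43.97 across *msnsd*. In both genes the genotypes overlapped, and both kept the first and second place in each of the 6 libraries. Their sum was 122.8 ± 6.81 TPM across E934 against 124.4 ± 6.08 across *msnsd*. This nearly equal sum was 78.3% ± 2.33 of the family total in E934 and 63.4% ± 1.94 in *msnsd*, where 2HG0181760 and 6HG0596190 took a larger share. The log2 fold changes, *msnsd* over E934 on log2(TPM + 0.1), were 0.05 (standard error 0.11) for 7HG0736060 and -0.04 (standard error 0.09) for 6HG0566830, and each changed sign when certain single libraries were left out.

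Among all 40411 genes ordered by mean TPM, 7HG0736060 stood at place 2180 and 6HG0566830 at place 3857. The other 8 genes lay between place 10996 and place 24290. In E934 the most abundant member exceeded the least abundant 208-fold, and in *msnsd* 69.2-fold.

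**Figure D1:**
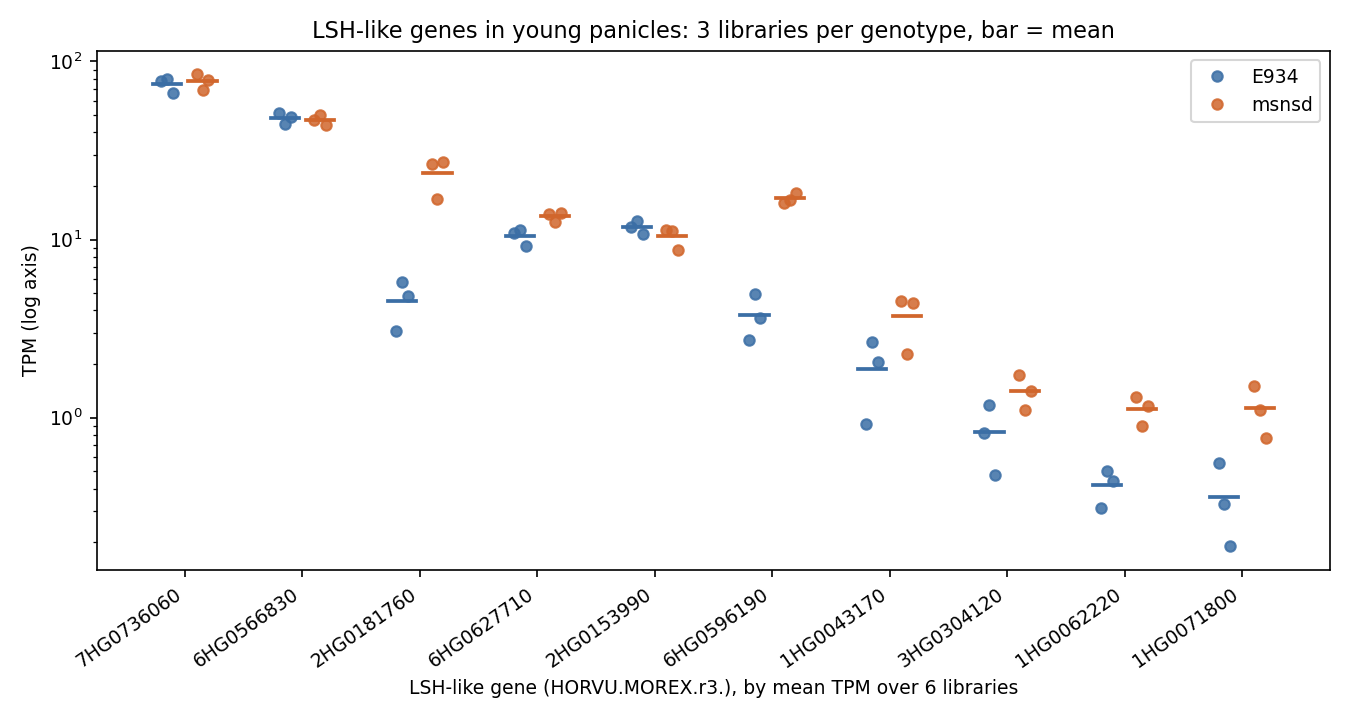
TPM (log axis) of the 10 LSH-like genes in the single libraries, 3 points per genotype with a bar at their mean, with genes ordered by their mean over the 6 libraries. The *msnsd* points of 2HG0181760 (17.00 to 27.08 TPM) and 6HG0596190 (16.11 to 18.34 TPM) lie far above the E934 points of the same genes, whereas the points of 7HG0736060 and 6HG0566830 overlap.

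The middle of the family held 4 genes, and their order differed between the genotypes. HORVU.MOREX.r3.2HG0153990 (2H, 359809024 to 359809806) had 11.76, 12.78 and 10.80 TPM across E934 against 11.37, 11.17 and 8.79 across *msnsd*, with overlap. It was one of the 2 members with a negative log2 fold change (-0.18, standard error 0.14). HORVU.MOREX.r3.6HG0627710 (6H, 547480616 to 547481386) had 10.85, 11.38 and 9.23 TPM across E934 against 13.88, 12.55 and 14.11 across *msnsd*. Each *msnsd* library of this gene lay above each E934 library, but the gap was small, from 11.38 to 12.55 TPM, and the log2 fold change was 0.37 (standard error 0.12).

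HORVU.MOREX.r3.2HG0181760 (2H, 559020274 to 559022048) had 3.08, 5.76 and 4.81 TPM across E934 against 26.55, 17.00 and 27.08 across *msnsd*. The lowest *msnsd* library was thus far above the highest E934 library, and the ratio of the means was 5.17. HORVU.MOREX.r3.6HG0596190 (6H, 375263206 to 375263820) had 2.73, 4.94 and 3.65 TPM across E934 against 16.11, 16.69 and 18.34 across *msnsd*, a ratio of the means of 4.52. Its *msnsd* libraries differed little from each other (coefficient of variation 6.79%), while those of 2HG0181760 spread more widely (24.1%), with replicate 2 low. In E934 the coefficients of variation were close, 29.9% for 2HG0181760 and 29.4% for 6HG0596190, and both genes ordered the E934 libraries in the same way, with replicate 1 lowest and replicate 2 highest. The log2 fold changes were 2.36 (standard error 0.27) and 2.18 (standard error 0.21). Among the 32996 genes tested, they stood at places 70 and 106 from the highest log2 fold change.

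The 4 least abundant genes were at or below 4.52 TPM in every library. HORVU.MOREX.r3.1HG0043170 (1H, 278416344 to 278417831) had 0.92, 2.67 and 2.05 TPM across E934 against 4.52, 2.29 and 4.42 across *msnsd*. HORVU.MOREX.r3.3HG0304120 (3H, 555180819 to 555181457) had 0.82, 1.18 and 0.48 TPM across E934 against 1.73, 1.11 and 1.42 across *msnsd*. In both of these genes replicate 2 of *msnsd* lay below replicate 2 of E934, so the genotypes overlapped although the means of *msnsd* were higher. HORVU.MOREX.r3.1HG0062220 (1H, 412167734 to 412168594) had 0.31, 0.50 and 0.44 TPM across E934 against 1.30, 0.90 and 1.16 across *msnsd*. HORVU.MOREX.r3.1HG0071800 (1H, 456363361 to 456364721) had 0.56, 0.33 and 0.19 TPM across E934 against 1.51, 1.11 and 0.77 across *msnsd*. These last genes, both on 1H, did not overlap between genotypes and had ratios of the means of 2.69 and 3.14. At such levels the size of a log2 fold change depends on the pseudocount: it was 1.24 (standard error 0.33) for 1HG0062220 and 1.45 (standard error 0.44) for 1HG0071800 at 0.1, and 0.58 and 0.64 at a pseudocount of 1. For 1HG0043170 and 3HG0304120 it was 1.01 (standard error 0.44) and 0.77 (standard error 0.38) at 0.1.

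Counted over the family, 8 of the 10 genes had a higher mean in *msnsd* and 2 a lower one. In 5 of the 10 genes each *msnsd* library exceeded each E934 library, beside 8.73% of all genes tested, and in 0 of the 10 was the reverse the case, beside 7.85% of all genes tested. With limma fitted across all genes and Benjamini-Hochberg adjustment, 1 of the 10, 6HG0596190, passed a log2 fold change of at least 1.5 in either direction and an adjusted p of at most 0.05 (adjusted p = 0.0419), beside 0.0485% of all genes tested. Since these differences chose the family, nothing is read from these shares. The call for 6HG0596190 was lost in 4 of the 6 fits without a single library, namely without replicate 3 of E934 and without replicate 1, 2 or 3 of *msnsd*, where its adjusted p ran from 0.157 to 0.239. The median log2 fold change was 0.89 over the 10 genes and -0.02 over all genes tested. The members nearest the threshold on either side were 6HG0596190, inside it, and 2HG0181760, whose larger log2 fold change had an adjusted p of 0.0600. The paper, using a count model at the same thresholds, reported 2HG0181760, 6HG0596190 and 1HG0071800 as upregulated in *msnsd*. Why its calls differ from those given here was not tested.

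**Figure D2:**
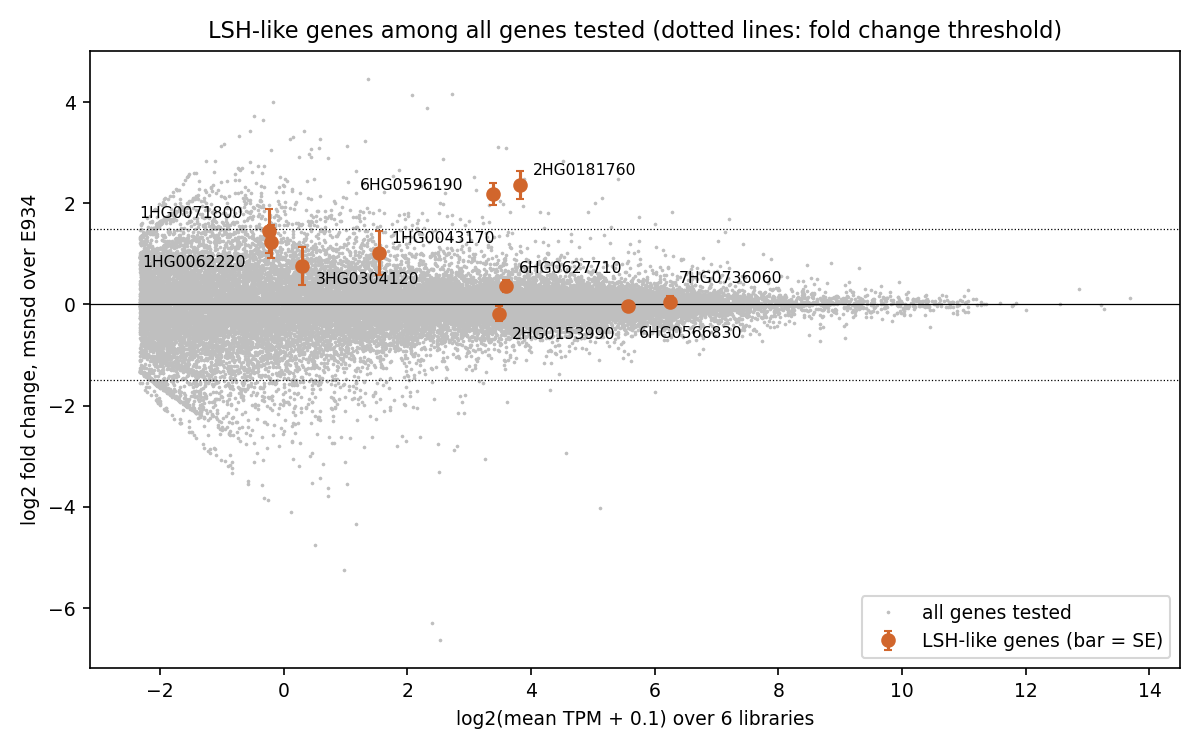
Log2 fold change of *msnsd* over E934 (vertical axis) against log2 of the mean TPM plus 0.1 (horizontal axis) for all 32996 genes tested (grey) and the 10 LSH-like genes (orange, bars are standard errors), with dotted lines at log2 fold changes of 1.5 and -1.5. The genes 2HG0181760 and 6HG0596190 lie above the upper dotted line at 2.36 and 2.18, and the 2 most abundant members lie near 0.

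The summed TPM of the 10 genes was 159.65, 164.13 and 146.98 in the E934 libraries and 208.15, 182.23 and 198.74 in the *msnsd* libraries, without overlap. The means were 156.9 ± 8.89 and 196.4 ± 13.1 TPM, a total 25.1% higher in *msnsd*. This value depends on the gene models counted: with 2 further models that are described as LSH but lack the domain, the sum was 3.76% higher in *msnsd* and the libraries overlapped. Of this net difference of 39.5 TPM, 2HG0181760 carried 19.0 TPM (48.1%) and 6HG0596190 carried 13.3 TPM (33.6%). The next contributions were 3.03 TPM (7.67%) from 6HG0627710 and 2.83 TPM (7.16%) from 7HG0736060, and the latter is within the spread between its replicates. Without 2HG0181760 and 6HG0596190, the other 8 genes summed to 153.84, 153.43 and 138.52 TPM across E934 against 165.49, 148.54 and 153.32 across *msnsd*, with overlap. The share of 2HG0181760 and 6HG0596190 together in the family total was 5.30% ± 1.49 in E934 and 20.6% ± 2.19 in *msnsd*. The 4 least abundant genes added little, from 0.59 TPM for 3HG0304120 to 1.86 TPM for 1HG0043170.

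**Figure D3:**
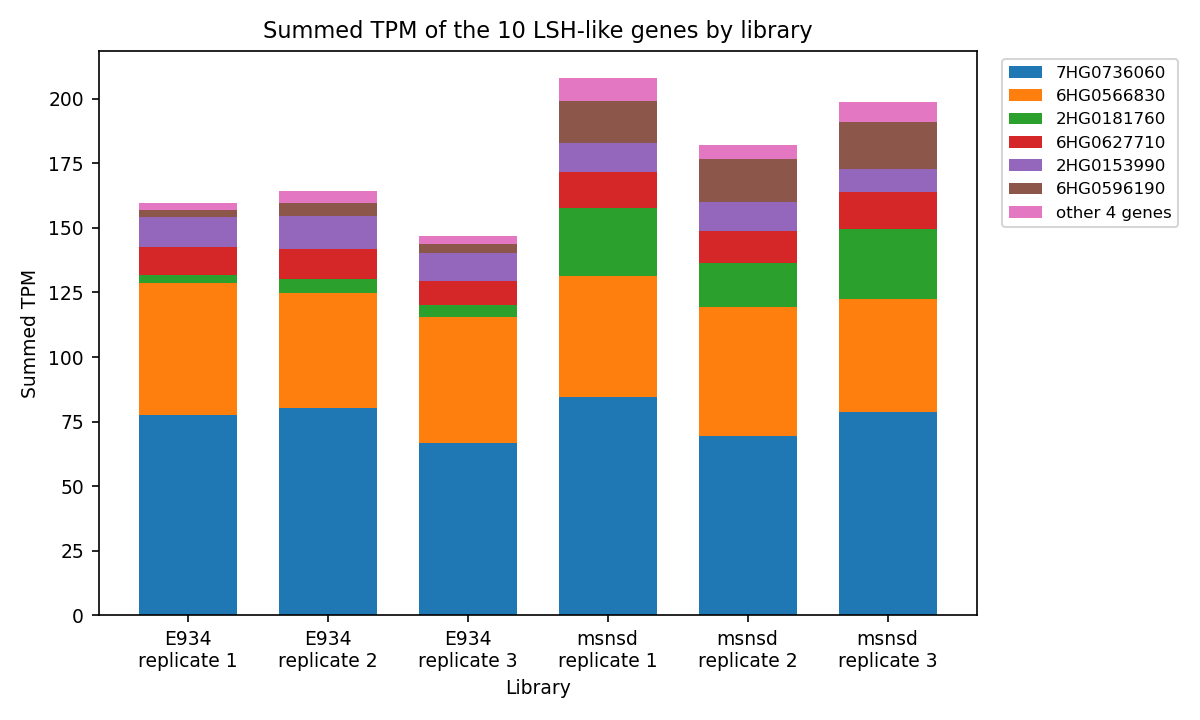
Summed TPM of the 10 LSH-like genes in each of the 6 libraries, stacked by gene, with the 4 least abundant genes pooled. The E934 bars end between 146.98 and 164.13 TPM and the *msnsd* bars between 182.23 and 208.15 TPM, and the green (2HG0181760) and brown (6HG0596190) segments take up most of the added height.

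The order of the levels changed only in the middle and at the low end. In E934 the order of the means was 7HG0736060, 6HG0566830, 2HG0153990, 6HG0627710, 2HG0181760, 6HG0596190, 1HG0043170, 3HG0304120, 1HG0062220 and 1HG0071800. In *msnsd* 2HG0181760 moved from place 5 to place 3 and 6HG0596190 from place 6 to place 4, past 6HG0627710 and 2HG0153990. The latter pair exchanged their order, and 1HG0071800 and 1HG0062220 exchanged the last places. Of the 9 pairs of neighbours in the order, 5 overlapped in E934, namely 2HG0153990 with 6HG0627710, 2HG0181760 with 6HG0596190, and each pair from 1HG0043170 down. In *msnsd* 3 pairs overlapped, namely 2HG0181760 with 6HG0596190, 3HG0304120 with 1HG0071800, and the last pair. The genes 2HG0181760 and 6HG0596190 thus overlapped in level with each other in both genotypes. In E934 their libraries lay below those of 6HG0627710 (2.73 to 5.76 against 9.23 to 11.38 TPM), and in *msnsd* they lay above them (16.11 to 27.08 against 12.55 to 14.11 TPM). The number of members at or above 1 TPM was 6, 8 and 7 in the E934 libraries and 10, 9 and 9 in the *msnsd* libraries.

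The place of the single libraries within a genotype was counted for the 10 genes and for all genes tested. Replicate 2 was the highest E934 library for 8 of the 10 genes, beside 45.2% of all genes tested. Replicate 1 was the lowest E934 library for 4 (35.6% of all genes tested) and replicate 3 for 5 (39.3%). Among the *msnsd* libraries replicate 2 was the lowest for 6 of the 10, beside 33.0% of all genes tested. With 10 genes these counts are a description. Replicate 1 of E934, the library with the lowest Rubisco small subunit level, also had the lowest 2HG0181760, 6HG0596190, 1HG0043170 and 1HG0062220. Without it the log2 fold change was 2.11 for 2HG0181760, 1.98 for 6HG0596190, 0.59 for 1HG0043170 and 1.09 for 1HG0062220. Leaving out the lowest E934 library of a gene must lower its log2 fold change. Replicate 1 was also the highest E934 library for 2 of the 10 genes, beside 32.1% of all genes tested. These were 1HG0071800 and 6HG0566830, with log2 fold changes of 1.76 and 0.0081 without it.

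The profiles nearest to those of the 3 most abundant members were looked for among the 23071 genes outside the family averaging at least 1 TPM. The measure was the root mean square difference of log2(TPM + 0.1) over the 6 libraries after centring each gene. It keeps the difference between genotypes that chose the family, so nothing is read from a match. For 2HG0181760 the nearest was HORVU.MOREX.r3.2HG0166090, annotated as Terminal flower 1, a family of floral repressors (13.5 ± 5.66 TPM across E934 against 71.6 ± 13.4 across *msnsd*, difference 0.218 log2 units). It was followed by a hydrolase, HORVU.MOREX.r3.2HG0193150 (0.231), and by a jasmonate O-methyltransferase, HORVU.MOREX.r3.3HG0316100 (0.258). By the same measure the family member 6HG0596190 lay at 0.237 from 2HG0181760. For 7HG0736060 the nearest were HORVU.MOREX.r3.6HG0603060, an F-box protein (0.0187), HORVU.MOREX.r3.4HG0383870, a malonyl-CoA acyl carrier protein transacylase (0.0278), and HORVU.MOREX.r3.5HG0446460, a mitochondrial carrier (0.0292). For 6HG0566830 they were HORVU.MOREX.r3.6HG0624580, annotated as translation initiation factor IF-2 (0.0210), HORVU.MOREX.r3.3HG0279430, a GPN-loop GTPase (0.0222), and HORVU.MOREX.r3.6HG0627730, annotated as survival motor neuron containing protein (0.0230).

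The 10 genes lie on 5 chromosomes, with 3 each on 1H and 6H, 2 on 2H and 1 each on 3H and 7H. Members on the same chromosome are at least 44.2 Mb apart, so none lie side by side. Each of the 10 overlaps exactly 1 gene of the RefSeq annotation of the same assembly, all protein-coding. In 6 of the 10 the RefSeq gene spans more than 1.5 times the deposited model, up to 2.95 times for 6HG0596190 (615 against 1815 bp). The spans run from start to end and include any introns, whereas TPM divides by the length of the transcript in the model used. Levels compared between members depend on these models, and so do the abundance order, the family total and the shares. A comparison of genotypes within a gene uses the same model on each side. How far it depends on that model was not tested. The deposited table gives GO terms to 0 of the 10.

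To see whether the differences extended to the surroundings, the 5 annotated genes on each side of every member were looked at, a choice made after the values were seen. Of these 100 neighbours 81 were tested, and 0 passed the threshold of the limma test, beside 0.0485% of all genes tested. At that share, a count of 0 among 81 genes says little. At an unadjusted p under 0.05, 8 of the 81 (9.88%) were higher in *msnsd*, beside 5.57% of all genes tested, and 3 were lower, beside 5.09%. The higher ones lay near 3HG0304120 (3 of 7 tested), 2HG0181760 (3 of 8), 2HG0153990 (1 of 8) and 6HG0596190 (1 of 8). The model counted near 6HG0596190 lies inside the same RefSeq gene as that member. Whether it is a separate gene was not tested.

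Near 2HG0181760, the L-allo-threonine aldolase gene HORVU.MOREX.r3.2HG0181700, 163 kb away, had 4.70 TPM across E934 against 11.5 across *msnsd* on average. At a log2 fold change of 1.27 (standard error 0.13) it stayed below the fold change threshold, although limma gave an adjusted p of 0.0475. The next gene on the other side, HORVU.MOREX.r3.2HG0181770, encodes a NAC domain protein and was scarce (0.11 and 0.42 TPM). Its log2 fold change was 1.31 (standard error 0.42), without overlap. Beyond it, HORVU.MOREX.r3.2HG0181800, annotated as protodermal factor 1, had 77.4 TPM across E934 against 94.0 across *msnsd* on average, without overlap. Its log2 fold change was 0.28 (standard error 0.11). Near 6HG0596190, the low-confidence model HORVU.MOREX.r3.6HG0596180 ends 0.427 kb away, inside the same RefSeq gene as the member. It had 0.257 TPM across E934 against 1.04 across *msnsd* on average, with overlap (log2 fold change 1.96, standard error 0.80). Whether both models belong to the same transcript was not tested.

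**Figure D4:**
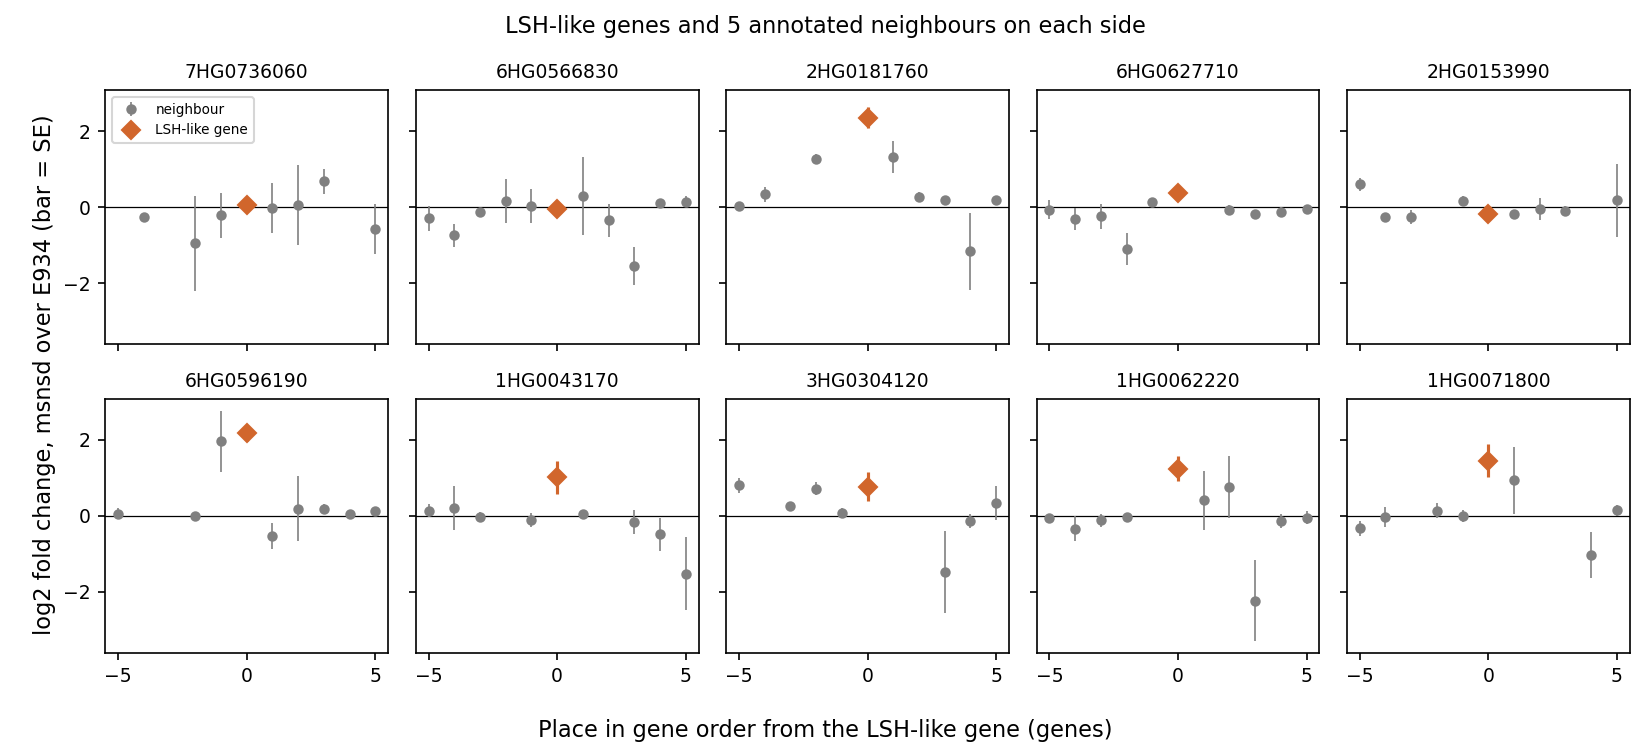
Log2 fold change of *msnsd* over E934 (bars are standard errors) of each LSH-like gene (orange diamond, place 0) and of the tested genes among its 5 annotated neighbours on each side (grey), in gene order. The diamonds of 2HG0181760 at 2.36 and 6HG0596190 at 2.18 stand above all their tested neighbours, of which the highest are at 1.31 and 1.96. The neighbour at 1.96 (standard error 0.80) lies inside the same RefSeq gene as 6HG0596190.

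Other gene families that act with ALOG genes in other species were read from the same fit, by Pfam domain. Each count at an unadjusted p under 0.05 is set beside the same share over all genes tested, 5.57% higher and 5.09% lower, and each median beside the -0.02 of all genes tested. The threshold was passed by 0.0485% of all genes tested, so a count of 0 in lists this short says little. In rice TAWAWA1 promotes MADS-box genes of the SVP type, in *Arabidopsis* LSH3 and LSH4 are induced by the NAC factor CUC1, and in tomato the ALOG protein TMF works with BLADE-ON-PETIOLE proteins, which carry a BTB/POZ domain and ankyrin repeats. The lists hold every gene with the domains. Which of their genes are of the SVP, CUC1 or BLADE-ON-PETIOLE type was not determined, so the counts are those of whole families. Of the 29 MADS-box genes with a K-box that were tested, 2 were higher (6.90%, beside 5.57%) and 12 lower (41.4%, beside 5.09%) at an unadjusted p under 0.05, with a median log2 fold change of -0.26, and 0 passed the threshold. The smallest p among them was that of HORVU.MOREX.r3.7HG0721170, with 110.52, 118.57 and 115.15 TPM across E934 against 66.39, 76.39 and 62.88 across *msnsd* (log2 fold change -0.75, limma adjusted p = 0.0609). Of 70 NAC genes tested, 3 were higher and 3 lower at an unadjusted p under 0.05, each 4.29% of the list and so below the shares of all genes tested (5.57% and 5.09%), and 0 passed the threshold. The smallest p was that of HORVU.MOREX.r3.7HG0680310, with 21.3 ± 0.261 and 26.4 ± 0.846 TPM (limma adjusted p = 0.240). Of 5 BTB/POZ genes with ankyrin repeats or an NPR1-like domain, 1 was higher (beside 5.57%) and 0 lower (beside 5.09%) at an unadjusted p under 0.05, in a list too short to set against these shares, and 0 passed the threshold. This gene, HORVU.MOREX.r3.3HG0319900, had 10.2 ± 1.10 TPM across E934 against 17.0 ± 1.36 across *msnsd*, without overlap (log2 fold change 0.73, limma adjusted p = 0.102).

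Among the meristem regulators, 4 of 9 KNOX genes were higher (44.4%, beside 5.57% of all genes tested) and 0 lower (beside 5.09%) at an unadjusted p under 0.05, with a median log2 fold change of 0.26. The smallest p was that of HORVU.MOREX.r3.2HG0154270, described as homeobox-1, with 14.3 ± 0.312 TPM across E934 against 21.3 ± 0.976 across *msnsd* (limma adjusted p = 0.0906). Of the 20 TCP genes, the family of *HvTCP25*, 6 were higher (30.0%, beside 5.57% of all genes tested) and 1 lower (beside 5.09%) at an unadjusted p under 0.05, and the smallest p was that of HORVU.MOREX.r3.2HG0183310 (8.71 ± 0.659 and 15.2 ± 1.40 TPM, limma adjusted p = 0.0906). In both lists 0 genes passed the threshold, beside 0.0485% of all genes tested. Of 9 PEBP genes, the family of floral repressors and promoters that holds *TFL1* and *FT*, 2 were higher (22.2%, beside 5.57% of all genes tested) and 0 lower (beside 5.09%) at an unadjusted p under 0.05. In that list 1 gene passed the threshold, which 0.0485% of all genes tested passed, HORVU.MOREX.r3.4HG0407080, described as Terminal flower 1 and annotated by RefSeq as a pseudogene, with 0.41, 1.01 and 0.33 TPM across E934 against 9.28, 7.42 and 10.90 across *msnsd* (log2 fold change 3.88, limma adjusted p = 0.0427). This call held in 1 of the 6 fits without a single library, the one without replicate 2 of E934, and in the other 5 the adjusted p ran from 0.0527 to 0.243.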

How the data were processed

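RNA-seq libraries of young panicles were grouped by the genotype in the sample labels, 3 of E934 and 3 of *msnsd*. The submitters' processing notes name fastp and Salmon 1.9.0, and the study's methods name the Morex V3 assembly as reference. The authors deposited TPM values with 2 decimals for each gene in each library. How transcripts were combined into genes is not given in the sources used here, and whether similar members share reads was not tested. The authors' own fold changes and p-values were not used.

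The test was limma 3.58.1 (R 4.3.3) with a trend of variance on mean, applied to log2(TPM + 0.1). Only genotype entered the model, the 32996 genes averaging 0.1 TPM or more were included, and p-values were adjusted over all of them by the Benjamini-Hochberg method. All 10 LSH-like genes passed this filter. The count model of the study was not run because TPM values are not counts. Depth is unknown, so no counting error is given. The p-values set the genotype difference against the spread between these libraries, with the variance of each gene drawn toward the trend over all genes. Tables and plots were made in Python 3.11.15 with numpy 2.4.6, pandas 2.3.3 and matplotlib 3.10.9. The limma step was tested on simulated data.

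The members and lists were chosen with earlier results of these data known. Named genes are the 10 members, the 3 nearest profiles of each of the 3 most abundant members, the gene with the smallest p in each related list and any of its genes past the threshold. Neighbouring genes were added after the values were seen. Members were matched by position to RefSeq genes of the same assembly. The alternatives tried were pseudocounts of 1 and 0.01, a stricter filter (mean TPM of 1) or none, scaling by median of ratios or by quantiles, a constant prior variance in limma, a block for the replicate number, other thresholds, and the omission of each library in turn. Promoter and protein sequences were not analysed here.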

Additional observations from a re-analysis of the deposited data

How the results depend on the processing

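The summed TPM of the 10 genes was higher in *msnsd* under every alternative tried for it, by 26.0% with median-of-ratios scaling, 25.8% with quantile normalization, and 21.3% to 29.6% without single libraries. The number of LSH-like genes past the threshold was 1 in the reported fit. It was 2 with genes under a mean TPM of 1 left out and with quantile normalization, where 2HG0181760 was added. It was 0 with a pseudocount of 0.01, without a filter and in limma without the trend, and 0 to 1 without single libraries. In the first 3 of these fits, 5 members each had an unadjusted p under 0.05. Over all genes tested, 3462 of 32996, 3828 of 40411 and 3252 of 32996 did, in that order. Without single libraries, 3 to 7 members had an unadjusted p under 0.05, beside 2299 to 5112 of all genes tested. Over all genes tested the number past the threshold was 16. It was 25 with genes under a mean TPM of 1 left out, 30 without the trend and 0 to 22 without single libraries. It was 0 in limma without replicate 3 of E934 and without each *msnsd* library, 5 without replicate 2 of E934 and 22 without replicate 1 of E934, and 2299 to 5112 genes had an unadjusted p under 0.05 in these fits. With the replicate block, 0 genes and 0 members passed the threshold in limma, and 3524 genes and 5 members had an unadjusted p under 0.05. Whether E934 and *msnsd* libraries of the same number were collected or prepared together is not given. Across genes, the deviations of such pairs correlated at 0.0186 (number 1), -0.160 (number 2) and 0.0730 (number 3). With 3 libraries per genotype, these values cannot show whether a pair was handled together. The causes of the shifts in the counts past the threshold were not tested.

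Of 138 refitted log2 fold changes of the members, 124 kept their direction and their side of the threshold, 8 lost the call and 2 gained it. The other 4 changed sign near 0. All 8 losses fell among the 14 refits of 6HG0596190, the only member past the threshold in the reported fit. Without single libraries 7HG0736060 ran from -0.027 to 0.13, below 0 without replicate 3 of E934 or replicate 1 of *msnsd*, and 6HG0566830 ran from -0.094 to 0.0081, above 0 without replicate 1 of E934 or replicate 3 of *msnsd*. Scaling moved the median of all genes by less than 0.1 on the log2 scale.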

Other observations

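The deposited annotation describes 12 genes as LIGHT-DEPENDENT SHORT HYPOCOTYLS, and 2 of them carry no PF04852 domain and were left out above. The low-confidence model HORVU.MOREX.r3.6HG0593890 (chromosome 6H, 356454282 to 356455583) overlaps a gene that RefSeq annotates as a long non-coding RNA. It was listed at 165.40, 179.70 and 164.70 TPM across E934 against 160.69, 139.91 and 127.56 across *msnsd*, above every one of the 10 LSH-like genes in every library. Its libraries did not overlap, with *msnsd* lower (log2 fold change -0.26, standard error 0.10, limma adjusted p = 0.425). Had it and the other model been counted in the family, the summed TPM would have been 326.9 ± 16.1 in E934 and 339.2 ± 25.8 in *msnsd* (SD, n = 3), with overlapping libraries, so the size of the difference in the family total depends on which models are counted. The second model, HORVU.MOREX.r3.7HG0671370 (7H, 120316873 to 120317500), was barely detected, with 0.08, 0 and 0.10 TPM across E934 against 0.09, 0.28 and 0 across *msnsd*, and did not pass the filter on low TPM.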
